A study of Homo sapiens with 12 samples.

Results

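Heat shock proteins are chaperones, proteins that help other proteins fold and keep damaged ones from clumping. Described here are the transcripts of 10 of them: HSPB1 and HSPB8 (small heat shock proteins), HSPA8, HSPA4 and HSPH1 (the HSP70 and HSP110 families), DNAJA1 (a J-domain partner of HSP70), HSP90AA1 and HSP90AB1 (cytosolic HSP90), and HSPD1 and HSPE1 (a chaperonin and its co-chaperonin). The set was named for the cytosol, but HSPD1 and HSPE1 encode proteins that work in the mitochondrial matrix; their mRNAs are made in the nucleus and translated in the cytoplasm like the others. The members were taken by name, as probe sets carrying 1 gene symbol that is that of a member, and HSPB8 was chosen by a measured value, its higher level with induction in Xrn1-treated RNA. All were chosen with earlier results of these data known, so their shares beside those of all genes are description. All 10 genes were measured, out of 16883 genes tested, with 196 probe sets, of which 169 passed the brightness filter (a mean level over the 12 arrays above 2.04, which removes the dimmer part of all probe sets).

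The cells were U2OS, a human osteosarcoma line, stably carrying a doxycycline-controlled K294A, a catalytically dead cytoplasmic capping enzyme. The active enzyme restores a cap to RNAs that have lost theirs, and Xrn1 is an exonuclease that digests RNA whose 5′ end carries a monophosphate in place of a cap, so the study asks which transcripts lose protection when re-capping is blocked. Cytoplasmic RNA was depleted of ribosomal RNA and either left alone or digested with Xrn1 in the tube, which gave 4 groups of 3 exon arrays. The uninduced untreated and uninduced Xrn1 groups received no doxycycline, and the induced untreated and induced Xrn1 groups received 1 ug/ml for 24 h. All 4 groups carry the K294A construct, so the series as used here has no parental line, and no group received doxycycline without the construct. The labels call the samples biological replicates without saying whether they came from separate cultures, so each p measures only the spread between these samples, which may be technical.

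In a cell the chaperones work in relays. Small heat shock proteins hold unfolding proteins; HSP70 binds exposed stretches of a client in a cycle driven by ATP, which J-domain proteins start and HSP110 proteins help to reset; HSP90 finishes and stabilises clients such as kinases and steroid receptors with the help of co-chaperones; the mitochondrial chaperonin folds imported proteins inside a barrel capped by its co-chaperonin. Many of these genes are switched on by heat shock factors, which bind repeats of the letters GAA in alternating orientation, the heat shock element. HSPA8 and HSP90AB1 are known as constitutive forms, HSP90AA1 as the stress-inducible HSP90, and HSPB8 as the partner of the co-chaperone BAG3 in clearing misfolded proteins.

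Some of the members hold, near their start, a motif that the choice by name did not use. In the RefSeq promoter windows of assembly GRCh38.p14, which run from 250 bases before to 50 bases after each transcription start, all 10 members were found, with 14 windows between them. A heat shock element of 3 units, GAANNTTCNNGAA or its reverse complement TTCNNGAANNTTC, was present in 5 of the 10 members and in 166 of 27305 genes with a window (0.608%). A shorter element of 2 units, GAANNTTC or TTCNNGAA, which every 3-unit match also contains, was present in 7 of 10 members and in 16.2% of genes. Neither was found in these windows of HSPA4, HSPH1 or HSPE1, which says only that these letters are absent there. The 3-unit matches are shown because that element is uncommon among all genes, and the 2-unit matches of HSPB1 and HSPB8, a form held by many genes, for comparison; each is written 5′ to 3′ on the strand of its gene with the motif in capitals, and none is evidence of binding.
HSPB1, chr7:76302480-76302509, plus strand: ccttaacgagaGAAGGTTCcagatgagggc
HSPB8, chr12:119178832-119178861, plus strand: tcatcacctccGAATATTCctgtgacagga
HSPA8, chr11:123062346-123062374, minus strand: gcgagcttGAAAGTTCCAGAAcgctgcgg
HSPA8, chr11:123062171-123062199, minus strand: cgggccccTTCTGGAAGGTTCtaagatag
DNAJA1, chr9:33025268-33025296, plus strand: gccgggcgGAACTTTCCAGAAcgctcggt
HSP90AA1, chr14:102087112-102087140, minus strand: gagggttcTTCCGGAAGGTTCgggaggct
HSP90AB1, chr6:44247770-44247798, plus strand: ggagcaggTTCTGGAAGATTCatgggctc
HSP90AB1, chr6:44247823-44247851, plus strand: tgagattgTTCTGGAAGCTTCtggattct
HSPD1, chr2:197500062-197500090, minus strand: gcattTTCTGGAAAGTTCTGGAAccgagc

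These sites lie upstream of the start of the window in which they were found, except that of DNAJA1, whose motif begins at base 4 after it. A gene can have several starts, and the sites of HSPA8, HSP90AA1, HSP90AB1 and HSPD1 lie inside the outer bounds of their genes. The nearest upstream match to a start was that of HSPA8, with its first base 55 bases before the start, and the farthest that of HSPD1, at 245 bases. HSPB1 and HSPB8, the small heat shock proteins of the set, hold only the 2-unit form, 182 and 88 bases before their starts. For this form only matches that end before the start were listed.

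Arrays with digested RNA were dimmer at the top of the range: 110 to 298 genes exceeded a level of 6 on an Xrn1 array, beside 327 to 1114 on an untreated one. The mean over 8 mesenchymal markers was 4.77 to 6.44 on an array, although COL1A2 and RUNX2 among them read only 2.57 to 4.05. The mean over 10 measured markers of other cell types was 2.91 to 3.44 in the first 3 groups and 3.44 to 3.54 in induced Xrn1. Among these CD3E read higher, with group means of 3.8 to 4.4 and a highest reading of 5 in induced untreated. In correlations across genes, which are not replicates, the array of induced untreated replicate 3 was nearer to uninduced untreated replicates 3 (0.979) and 1 (0.952) than to the other arrays of its own group (0.87 and 0.835). Uninduced Xrn1 replicate 2 correlated at 0.711 and 0.847 with replicates 1 and 3 of its group, which correlated at 0.918 with each other. Uninduced untreated replicate 2 correlated at 0.837 and 0.898 with replicates 1 and 3 of its group, which correlated at 0.967 with each other. Without induced untreated replicate 3 no member's Xrn1 difference in induced cells moved by more than 0.16 but that of HSPB8, which moved by 0.32, and without uninduced Xrn1 replicate 2 none moved by more than 0.27 in uninduced cells; in each the same 7 of 9 members without HSPB8 fell. Other values without induced untreated replicate 3 or uninduced Xrn1 replicate 2 are given where they change a call or a direction, and for induction beside the results. Those without uninduced untreated replicate 2 are given where they change the call of a member. Values are log2 levels normalised across arrays, so each difference is relative to the other RNAs on the array.

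Most of the heat shock transcripts were lower after digestion with Xrn1, in both states of induction. Averaged over induction, 8 of 10 members fell and none rose at an adjusted p under 0.05 (limma, Benjamini-Hochberg over 16883 genes); of all genes, 29.8% fell and 14.2% rose. In uninduced cells 7 of 9 members fell, against 31.8% of all genes, and in induced cells 7 of 9 fell, against 17.8%. HSPB8 was left out of these last counts because its choice used the Xrn1 arrays. It is among the 8 of the average, which uses these arrays too. In the same 7 genes the treatments did not overlap, as for 33.6% of all genes lower in uninduced and 22.6% in induced cells; in the other direction 7.24% and 21.6% of all genes rose. The median difference over all 10 members was -2.53 in uninduced cells and -1.89 in induced cells, beside -0.27 and 0.1 over all genes. The members other than HSPB8 had a mean level above 4, a limit set after seeing the data, and genes above it fell more often. Of 3963 such genes, 57.3% fell in uninduced cells, 34.1% in induced cells and 52.3% on average, with medians of -1.05, -0.22 and -0.64. The part of brightness in the members' share was not tested, and the members were chosen with earlier results of these data known. No member rose in any of these counts. The p given for single genes use a spread pooled over all genes, not the gene's own. With each gene's own spread the same members fell, at adjusted p up to 0.0383 (DNAJA1 in induced cells, limma). Cyclic loess, another scaling of the arrays, made most of these falls smaller: the 8 members that fell still did so on average, by between 0.65 (HSP90AB1) and 2.11 (HSP90AA1) on the log2 scale, against 26.7% of all genes, and HSPB1 rose in all 3 comparisons, as given with its values.

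**Figure D1:**
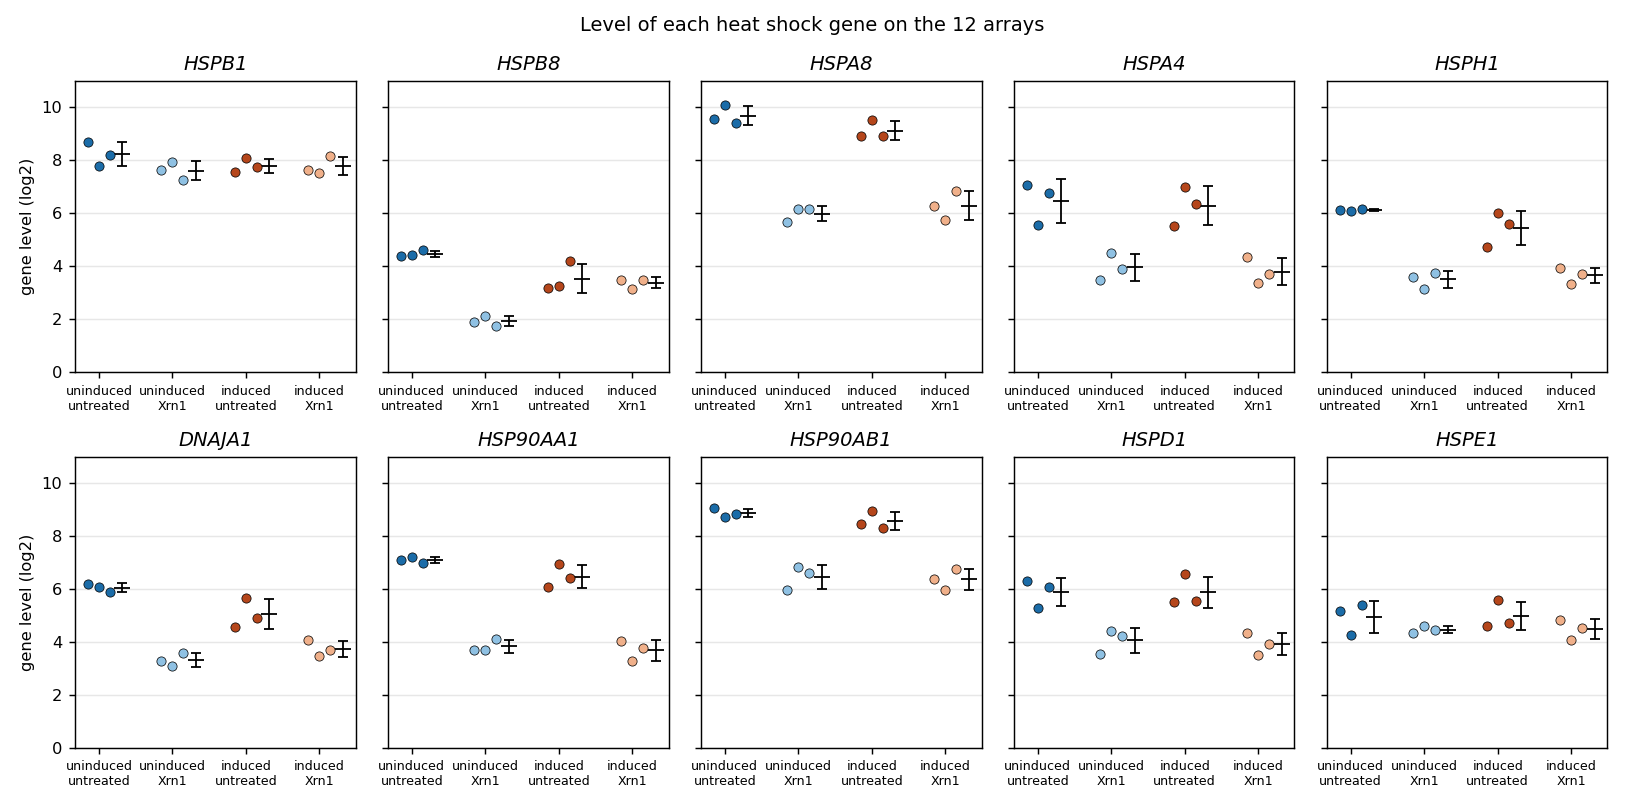
Level (log2) of each of the 10 genes on the 12 arrays, 3 per group, with the mean and SD of each group drawn beside its points. HSPA8 sits between 8.93 and 10.08 on the untreated arrays and between 5.67 and 6.84 on the Xrn1 arrays, the groups of HSPB1 overlap, and the uninduced Xrn1 arrays of HSPB8, at 1.75 to 2.11, lie below its other 9.

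HSPB1, a small heat shock protein that holds unfolding proteins and binds actin, stayed high on every array. It read 8.71, 7.79 and 8.21 on the uninduced untreated arrays (replicates 1 to 3) and 7.64, 7.95 and 7.25 after Xrn1. In induced cells it read 7.57, 8.1 and 7.75 untreated and 7.63, 7.53 and 8.15 after Xrn1. All 4 groups overlapped with their neighbours in level. The Xrn1 difference was -0.62 ± 0.34 (SE) in uninduced cells (adjusted p = 0.134, limma) and -0.04 ± 0.34 in induced cells (adjusted p = 0.948, limma), with a 95% interval for the average of -0.8 to 0.14. This value depended on the scaling: after cyclic loess the average difference was 1.4, a rise (adjusted p = 6.47e-07, limma) where 27.5% of all genes rose and 26.7% fell, and without uninduced replicate 2 of both treatments it was -0.53, a fall (adjusted p = 0.0477, limma). Without uninduced untreated replicate 2 alone, the difference in uninduced cells was -0.85, also a fall (adjusted p = 0.0384, limma).

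HSPB8, the small heat shock protein that hands clients to BAG3, had a pattern of its own among the members. On the uninduced untreated arrays it read 4.37, 4.42 and 4.6, and on the uninduced Xrn1 arrays 1.9, 2.11 and 1.75. In induced cells it read 3.17, 3.24 and 4.18 untreated and 3.49, 3.13 and 3.48 after Xrn1. The uninduced groups lay far apart and the induced groups overlapped. Its group means ran from 4.46 (uninduced untreated) through 3.53 (induced untreated) and 3.37 (induced Xrn1) to 1.92 (uninduced Xrn1). The middle pair overlapped and the outer neighbours did not. HSPB1, HSPA8, HSPH1 and DNAJA1 had their means in the same order, with other overlaps.

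With induction, HSPB8 differed in opposite directions in the untreated and the digested RNA, as did the median over all genes (-0.35 and 0.28). In Xrn1-treated RNA, the contrast by which it was chosen and which is given without a test, it was higher with induction by 1.45 ± 0.34 (SE), 2.73-fold, which ranked 8 of 16883 genes; the next member, DNAJA1, was higher by 0.43. Without Xrn1, on arrays the choice did not use, it was lower with induction by 0.93 (adjusted p = 0.11, limma). The 3 arrays of each group did not overlap in that comparison, as for 17.4% of all genes in the same direction. Without induced untreated replicate 3, whose 4.18 lay nearest the uninduced arrays, the difference was -1.26 (adjusted p = 0.00747, limma), where 37.9% of all genes fell and 3.06% rose.

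Seen along the other axis, HSPB8 was lower after Xrn1 by 2.55, 5.84-fold, in uninduced cells and by 0.16, 1.12-fold, in induced cells, both given as description. Its uninduced Xrn1 mean of 1.92 lay below 2.04, the limit under which probe sets were left out as dim. The 2.55 here and the 1.45 with induction in Xrn1-treated RNA are both taken against that dim reading. The induced value had no stable sign, standing at 0.16 without induced untreated replicate 3 and at 0.11 with the dim probe sets included, a setting in which the uninduced value was -1.51. The difference of these Xrn1 effects was 2.38 ± 0.48 (SE), the largest of the 10 members; those of DNAJA1 and HSPA8 were 1.43 and 0.84, and the median over all genes was 0.7. The average of both Xrn1 effects uses the same Xrn1 arrays as the choice. It is independent of the contrast used there only if the arrays of both Xrn1 groups vary alike. Estimated array weights, which had not converged, were 0.0307 to 1.62 in uninduced Xrn1 and 3.08 to 5.73 in induced Xrn1. In that average HSPB8 fell by 1.35 ± 0.24 on the log2 scale, 2.56-fold (adjusted p = 1.84e-07, limma), a p that may not be free of the choice. With the dim probe sets included the average was -0.7 (adjusted p = 0.00648, limma), and with each gene's own spread in place of the pooled one the adjusted p was 0.00129 (limma).

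HSPB8 rested on 3 kept probe sets of 7, the fewest of any member, and all 3 were dim. Probe set 3434022 averaged 4.25 ± 0.48 (SD, n = 3) on uninduced untreated, 1.23 ± 0.03 on uninduced Xrn1, 3.39 ± 0.84 on induced untreated and 2.5 ± 0.28 on induced Xrn1 arrays. Probe set 3434023 averaged 4.77 ± 0.45, 1.41 ± 0.41, 3.79 ± 0.45 and 3.86 ± 0.5 in the same order. Probe set 3434015 moved less, at 4.36 ± 0.14, 3.12 ± 0.44, 3.41 ± 0.66 and 3.74 ± 0.15. In all 3 the uninduced Xrn1 group was the lowest and the uninduced untreated group the highest. The higher value with induction in digested RNA was 1.27, 2.45 and 0.63 in these probe sets. The 4 probe sets left out had means of 1.23 to 1.85 over the 12 arrays; with them included, the difference with induction in Xrn1-treated RNA was 0.81 in place of 1.45. Without uninduced Xrn1 replicate 2 it was 1.54.

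**Figure D2:**
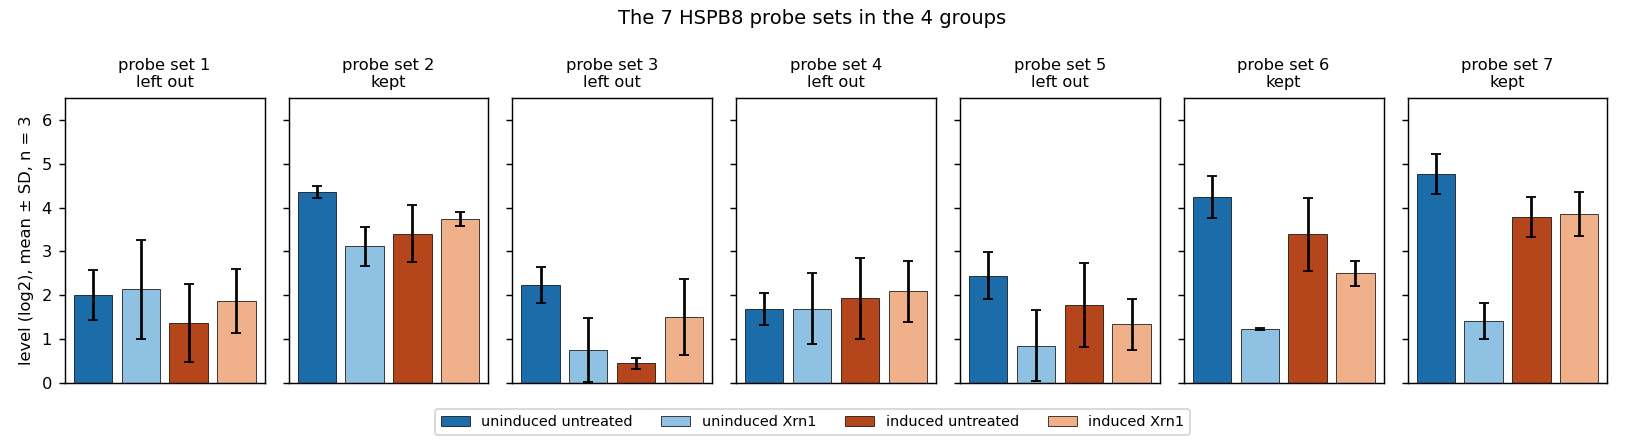
Level (log2, mean with SD, n = 3) of the 7 HSPB8 probe sets in the 4 groups, in the order of their numbers. The 3 kept probe sets (2, 6 and 7) have their lowest bar in uninduced Xrn1, at 3.12, 1.23 and 1.41; the 4 left out are below 2.5 in every group.

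Of the HSP70 machinery, all 4 members fell after Xrn1 in both states of induction. HSPA8, the constitutive cytosolic HSP70 that also strips clathrin from vesicles, had the largest differences of the 4 on the deposited scale. It read 9.55, 10.08 and 9.4 on the uninduced untreated arrays and 5.67, 6.16 and 6.15 after Xrn1; in induced cells it read 8.93, 9.54 and 8.93 untreated and 6.28, 5.76 and 6.84 after Xrn1. No Xrn1 array reached the lowest untreated one. The log2 difference was -3.68 ± 0.34 (SE), 12.8-fold, in uninduced cells (adjusted p = 3.63e-24, limma) and -2.84 ± 0.34, 7.15-fold, in induced cells (adjusted p = 8.19e-14, limma). After cyclic loess these were -1.61 (adjusted p = 6.59e-06) and -1.5 (adjusted p = 3.38e-05, limma), and HSPA8 was no longer the first of the 4: HSPA4 stood at -1.65 on average beside its -1.55, and DNAJA1 at -1.76 in uninduced cells.

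HSPA4 and HSPH1 belong to the HSP110 family, which helps HSP70 release its nucleotide. HSPA4 read 7.08, 5.55 and 6.78 on the uninduced untreated and 3.49, 4.5 and 3.9 on the uninduced Xrn1 arrays, and 5.51, 7 and 6.37 on the induced untreated and 4.36, 3.36 and 3.69 on the induced Xrn1 arrays. Its spread between arrays of a group, with a residual SD of 0.658, was the widest of the members, yet the treatments did not overlap. The differences were -2.51 (adjusted p = 6.57e-12) and -2.49 (adjusted p = 6.58e-11, limma) in uninduced and induced cells. These p use the spread pooled over all genes. With the gene's own spread the adjusted p were 0.00974 and 0.0368 (limma). HSPH1 read 6.12, 6.07 and 6.15 uninduced untreated, 3.6, 3.14 and 3.76 uninduced Xrn1, 4.74, 6 and 5.61 induced untreated, and 3.93, 3.34 and 3.69 induced Xrn1. The differences were -2.61 (adjusted p = 7.88e-13) and -1.8 (adjusted p = 4.19e-06, limma).

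DNAJA1, a J-domain protein that delivers clients to HSP70, read 6.2, 6.07 and 5.88 on the uninduced untreated arrays and 3.26, 3.08 and 3.59 after Xrn1. In induced cells it read 4.58, 5.66 and 4.91 untreated and 4.06, 3.45 and 3.71 after Xrn1. The gap between treatments was wide in uninduced cells and narrower in induced cells, and in neither did the arrays overlap. It fell by 2.74 on the log2 scale, 6.68-fold, in uninduced cells (adjusted p = 5.4e-14, limma) and by 1.31, 2.48-fold, in induced cells (adjusted p = 0.00111, limma). The induced value moved with the way probe sets were combined: with their median in place of their mean it was -0.24 (adjusted p = 0.698, limma).

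Both cytosolic HSP90 genes fell. HSP90AA1, the inducible form, read 7.09, 7.22 and 6.99 on the uninduced untreated and 3.68, 3.69 and 4.12 on the uninduced Xrn1 arrays, and 6.07, 6.93 and 6.42 on the induced untreated and 4.05, 3.26 and 3.76 on the induced Xrn1 arrays. All 6 Xrn1 arrays lay below all 6 untreated arrays, as for 11.5% of all genes. The average difference was -3.03 ± 0.24 (SE), 8.14-fold, beside the -3.26 of HSPA8 (adjusted p = 3.12e-33 and 2.39e-38, limma). The order of these genes depended on the setting: HSP90AA1 stood below HSPA8 with the median of probe sets (-4.01 and -3.33), with only the brighter probe sets (-3.47 and -3.26) and after cyclic loess (-2.11 and -1.55). HSP90AB1, the constitutive form, read 9.06, 8.74 and 8.83, then 5.96, 6.82 and 6.61 in uninduced cells, and 8.45, 8.95 and 8.29, then 6.37, 5.97 and 6.77 in induced cells, untreated before Xrn1. Its differences were -2.41 (adjusted p = 4.31e-11) and -2.19 (adjusted p = 1.13e-08, limma); after cyclic loess the uninduced value was -0.39 (adjusted p = 0.202, limma). A further 12 probe sets of HSP90AA1 and 22 of HSP90AB1 also carry the symbols of near-identical HSP90 copies and were not used, and signal from such copies on the probe sets that were used cannot be told apart from the named gene.

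The mitochondrial pair split. HSPD1, the chaperonin, read 6.31, 5.29 and 6.07 on the uninduced untreated and 3.53, 4.43 and 4.21 on the uninduced Xrn1 arrays, and 5.52, 6.56 and 5.56 on the induced untreated and 4.32, 3.49 and 3.91 on the induced Xrn1 arrays. Treatments did not overlap, and it fell by 1.83, 3.56-fold, and by 1.98, 3.94-fold, on the log2 scale (adjusted p = 8.13e-07 and 3.31e-07, limma). After cyclic loess the uninduced value was -0.67 (adjusted p = 0.063, limma). HSPE1, its co-chaperonin, read 5.17, 4.27 and 5.39, then 4.34, 4.62 and 4.44 in uninduced cells, and 4.62, 5.6 and 4.72, then 4.82, 4.09 and 4.52 in induced cells, untreated before Xrn1. Its groups all overlapped, and the average difference of -0.49 had an interval of -0.96 to -0.02 and an adjusted p of 0.0845 (limma). The call of HSPE1 turned on single arrays and on dim probe sets: the average was -0.66 without uninduced untreated replicate 2 (adjusted p = 0.0186), -0.58 without induced untreated replicate 1 (adjusted p = 0.0468), -0.7 without uninduced replicate 2 of both treatments (adjusted p = 0.0192) and -0.78 with only the brighter probe sets (adjusted p = 0.00849, limma), all falls. Other settings took it the other way: it was -0.02 with the median of probe sets (adjusted p = 0.971) and 0.18 after cyclic loess (adjusted p = 0.436, limma), where the uninduced value was 0.59 (adjusted p = 0.0854, limma).

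**Figure D3:**
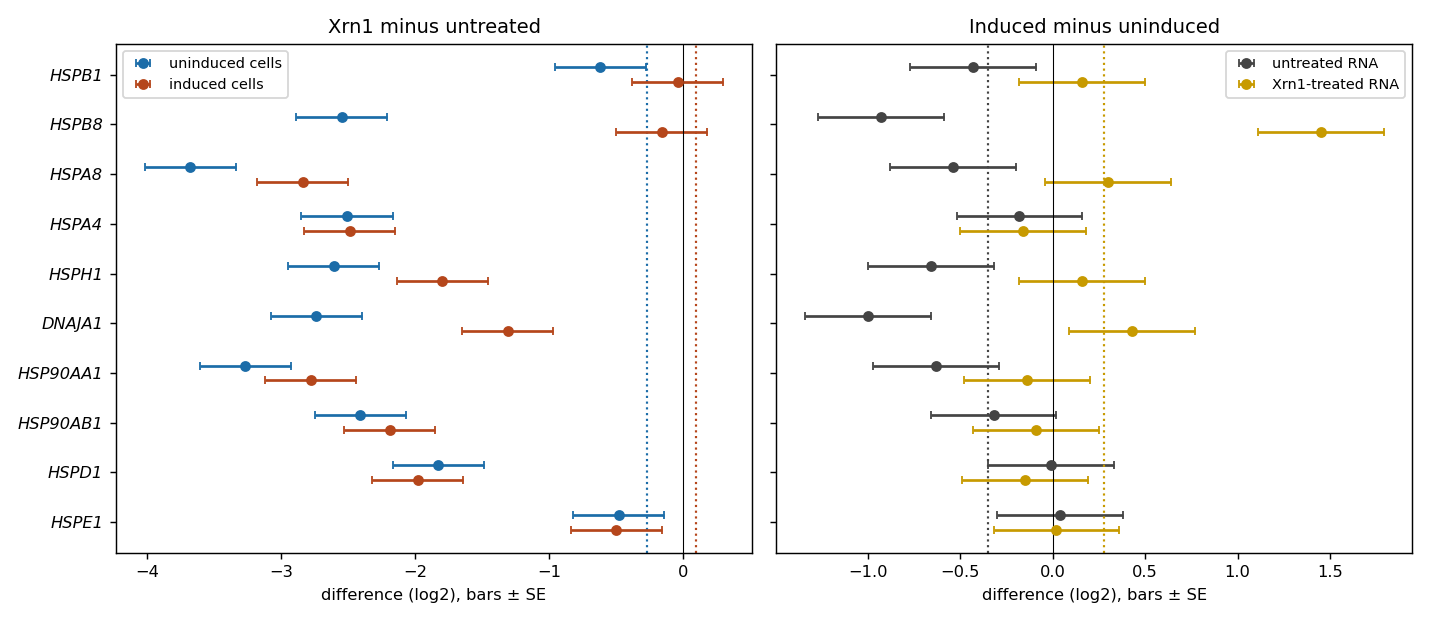
Log2 difference of each gene with its SE, Xrn1 minus untreated (left, uninduced and induced cells) and induced minus uninduced (right, untreated and Xrn1-treated RNA); dotted lines are the medians over all 16883 genes. On the left all points but those of HSPB1, HSPE1 and induced HSPB8 lie below -1, and on the right HSPB8 lies lowest but for DNAJA1 in untreated RNA (-0.93) and highest in Xrn1-treated RNA (1.45).

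Induction alone, in untreated RNA, gave smaller differences. In limma, 0 of 10 members passed an adjusted p of 0.05 in the untreated RNA, where 0.0296% of all genes fell and 0.0118% rose; 2 members, HSPB8 and DNAJA1, had an unadjusted p under 0.05, as did 30.8% of all genes. With each gene's own spread, limma also called 0 members, and 3 had an unadjusted p under 0.05. DNAJA1 was lower by 1 (adjusted p = 0.11), HSPH1 by 0.66 (adjusted p = 0.167), HSP90AA1 by 0.63 (adjusted p = 0.186) and HSPA8 by 0.54 (adjusted p = 0.247, limma). HSPD1 and HSPE1 stood at -0.01 and 0.04, with 95% intervals of -0.68 to 0.66 and -0.63 to 0.71. The median of the 10 differences was -0.49, beside -0.35 over all genes. In HSPB8, HSPH1, DNAJA1 and HSP90AA1 the 3 induced arrays lay below the 3 uninduced ones without overlap, 4 of 10 members beside 17.4% of all genes. Without induced untreated replicate 3, HSPB8 and DNAJA1 passed as lower (-1.26 and -0.93, adjusted p = 0.00747 and 0.0313, limma), and 37.9% of all genes fell with them; HSPH1, HSP90AA1 and HSPA8 then stood at -0.74, -0.6 and -0.44 (adjusted p = 0.0854, 0.14 and 0.315, limma). HSPD1 and HSPE1 stood at 0.16 and 0.17 there. In a bulk extract, fewer cells holding a transcript and less of that transcript per cell cannot be told apart.

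In Xrn1-treated RNA, where the choice of HSPB8 lies, the other 9 members differed with induction by -0.16 (HSPA4) to 0.43 (DNAJA1), given without a test. The median over the 10 members was 0.09 and that over all genes 0.28; 31.3% of all genes were higher with induction without overlap of the arrays. Apart from HSPB8, DNAJA1, HSPA8, HSPB1, HSPH1 and HSPE1 stood above 0, at 0.43, 0.3, 0.16, 0.16 and 0.02, and HSP90AB1, HSP90AA1, HSPD1 and HSPA4 below, at -0.09, -0.14, -0.15 and -0.16. Without uninduced Xrn1 replicate 2 these 9 ran from -0.21 (HSP90AA1) to 0.39 (HSPA8), and HSP90AB1, HSPD1 and HSPA4 stood above 0 and HSPH1 below. Both comparisons of induction, and both of Xrn1, are made of the same 12 arrays, so an array that is bright moves more than 1 of them.

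The probe sets of a gene read different stretches of its transcripts and share its RNA, so they are not replicates, but they show whether a fall ran through the gene. All 23 kept probe sets of HSPA8 fell in the average over induction (adjusted p under 0.05, limma over 705699 probe sets, of which 11.4% fell and 11.7% rose). In HSPA4, 20 of 25 fell, in HSP90AA1 25 of 30, in HSP90AB1 12 of 16 and in HSPD1 14 of 17, and none of these rose. HSPB8 had 2 of 3 lower, HSPB1 2 of 9 and HSPE1 3 of 8. The largest single fall was probe set 3367322 of HSP90AA1, at -6.13. Its number lies far from the main run of numbers of HSP90AA1, which holds 19 of the 30 kept probe sets. In that run the largest fall was -5.5 (3580194).

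A few probe sets went the other way within a gene that fell. In HSPH1, 22 of 27 fell and 2 rose: 3508402, which averaged 6.18 and 6.15 on the uninduced and induced untreated arrays and 7.84 and 8 after Xrn1, and 3508404, with average differences of 1.75 (adjusted p = 0.000349) and 0.96 (adjusted p = 0.0464, limma). These carry the highest numbers among the kept probe sets of HSPH1. In DNAJA1, 9 of 11 fell and 3166719, the lowest number, rose by 1.94 (adjusted p = 0.000203, limma), while 3166726 stood at -5.21. The probe sets of HSPE1 also parted: 3608284, 2521488 and 2521491 fell by 1.27, 1.82 and 1.19, and the dim 2521481 rose by 1.34 (adjusted p = 0.0348, limma). Its 2 probe sets above a mean level of 7 had a median of -1.5, and its 4 probe sets at or below 4 a median of 0.14. In 6 members the kept probe sets fall into several blocks of numbers, apart by more than 1000, with 26 outside the largest block of their gene; whether these lie in copies of the gene was not tested. From the largest block alone, the average difference was -3.29 for HSPA8, -2.98 for HSP90AA1, -1.76 for HSPD1 and -0.38 for HSPE1, close to the values from all kept probe sets. Positions of probe sets along the transcripts were not used here.

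**Figure D4:**
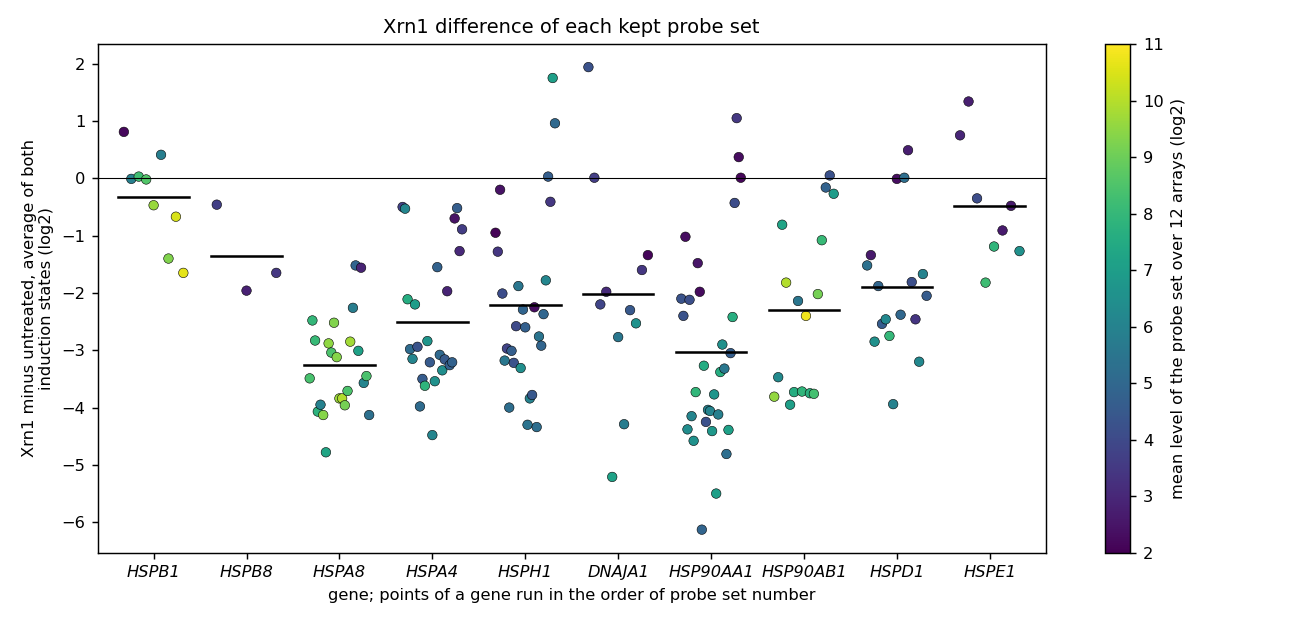
Xrn1 difference (log2, average of both induction states) of each kept probe set, coloured by its mean level over the 12 arrays, with a bar at the gene's value; points of a gene run in the order of probe set number. All 23 points of HSPA8 lie below 0, and the points above 0.9 belong to HSPH1 (1.75 and 0.96), DNAJA1 (1.94), HSP90AA1 (1.05) and HSPE1 (1.34).

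Over the 12 arrays, which fall into untreated and digested groups, the falling members ran closely together. Pearson correlations were 0.986 for HSPA4 with HSPD1, 0.984 for HSP90AA1 with HSPA8 and 0.981 for DNAJA1 with HSPH1, given as a description of arrays that share treatment and brightness. HSPB8 followed the others less, from 0.82 with DNAJA1 to 0.399 with HSPE1. So did the members that were not called: HSPB1 ran from 0.639 with HSPE1 to 0.498 with HSP90AA1. HSPE1 ran from 0.809 with HSPD1 to its 0.399 with HSPB8. The 5 tested genes most like HSPB8 by that measure were SDHAF2 (0.978) and MANBAL, STN1, ZNF91 and NUDT5 (0.961 each). SDHAF2, an assembly factor of succinate dehydrogenase, averaged 4.87, 2.81, 3.93 and 4.1 in the order uninduced untreated, uninduced Xrn1, induced untreated and induced Xrn1. NUDT5, a nucleotide-sugar hydrolase, averaged 4.14, 2.14, 3 and 3.14. In both, as in HSPB8, the uninduced Xrn1 arrays were the lowest and the induced groups overlapped.

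Other chaperone genes were taken from 6 lists with 57 genes, also chosen with earlier results of these data known. Of these, 53 were measured, and HSPA1A, HSPA1B, HSPA6 and HSPB2 did not reach 3 kept probe sets. Averaged over induction, 30 of the 53 fell and 6 rose after Xrn1, against 29.8% and 14.2% of all genes, with a median of -0.65 beside 0.05. The count of rises moved with the processing in both directions: it was 10 when each array was centred on its median gene (28 falls) and 11 after cyclic loess (27 falls), but 3 with no filter on dim probe sets (26 falls) and 3 with each gene's own spread (24 falls). It was 2 without uninduced untreated replicate 1 or without uninduced Xrn1 replicate 3, and 3 without uninduced Xrn1 replicate 1, induced untreated replicate 2 or any 1 of the induced Xrn1 arrays. In uninduced cells 27 of 53 fell and 1 rose, against 31.8% and 7.24% of all genes, and in induced cells 15 fell and 7 rose, against 17.8% and 21.6%. For induction in untreated RNA, 0 of the 53 passed in either direction (limma), and the list genes with the smallest p lay between -1.16 (BAG5) and 1.06 (HSPB3). Without induced untreated replicate 3, 28 of them fell and 1 rose, as 37.9% and 3.06% of all genes did.

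The counts by list are for the Xrn1 average, in which 29.8% of all genes fell and 14.2% rose. Of genes with a mean level above 4, 52.3% fell, and the lists were not matched for brightness. In uninduced cells alone, 8 of 11 HSP90 co-chaperones, 6 of 11 J-domain, 5 of 12 HSP70 list and 6 of 9 mitochondrial genes fell. In induced cells these were 6, 5, 1 and 2, where 17.8% of all genes fell. There 2 of the HSP70 list and 1 J-domain gene rose, as 21.6% of all genes did. Counts and differences that follow are averages unless a state is named. Co-chaperones of HSP90 had the largest share of falls among the 6 lists, 9 of 11 with none higher. PTGES3, the p23 protein that locks HSP90 onto its client, read 6.68, 6.59 and 6.5 on the uninduced untreated arrays and 3.96, 3.85 and 4.05 after Xrn1, and its average difference was -2.38 (adjusted p = 4.95e-21, limma). STIP1, the adaptor between HSP70 and HSP90, read 6.55, 6.55 and 6.62, then 3.87, 3.94 and 4.14 there, and its average difference was -1.76 (adjusted p = 6.38e-12, limma). FKBP4 and CHORDC1 followed at -1.57 and -1.37. Of J-domain proteins, 7 of 11 fell and 1 rose, among them DNAJB1 (-1.42), DNAJB6 (-1.3), DNAJA2 (-1.27) and DNAJC7 (-1.24), the partners of HSP70 named here. Of the HSP70 family and its regulators, 5 of 12 fell and 1 rose, with a median of -0.08, close to the 0.05 over all genes. The largest fall there was that of ST13 (-1.51, adjusted p = 4.39e-09, limma), the HSP70-interacting protein, followed by HSPA14 (-1.12), BAG5 (-0.92) and BAG4 (-0.77). Of these only ST13 passed in induced cells (-1.11, adjusted p = 0.00592, limma), and BAG5 stood at -0.05 there, beside -1.8 in uninduced cells. With each gene's own spread the adjusted p of BAG4 was 0.102 (limma).

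BAG3, which works with HSPB8, averaged 4.36 ± 0.24 (SD, n = 3) uninduced untreated, 3.27 ± 0.37 uninduced Xrn1, 3.39 ± 0.64 induced untreated and 4.08 ± 0.24 induced Xrn1. Its average Xrn1 difference was -0.2 (adjusted p = 0.491, limma) and its difference with induction in untreated RNA -0.97 (adjusted p = 0.11, limma). The highest mean of BAG3, as of HSPB8, was in uninduced untreated RNA and the lowest in uninduced Xrn1, but unlike for HSPB8 the latter overlapped with induced untreated.

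The other small heat shock proteins mostly did not fall. Of 6 measured, 3 rose on average, HSPB7 (0.78, adjusted p = 0.00437), HSPB9 (0.6, adjusted p = 0.0313) and HSPB6 (0.58, adjusted p = 0.0384), and CRYAB, the eye-lens and muscle alpha-B crystallin, fell by 0.63 (adjusted p = 0.025, limma). In uninduced cells HSPB9 and HSPB6 stood at -0.05 and 0.03, and in induced cells at 1.26 and 1.14, where 21.6% of all genes rose. HSPB7 stood at 1.09 and 0.48, and CRYAB at -1.49 and 0.23, in uninduced and induced cells. Of all genes, 14.2% rose and 29.8% fell on average. These small heat shock genes read low, with group means between 1.92 and 3.97. Of the 10 measured markers of other cell types, also low, 2 rose and 0 fell, with a median of 0.29. With each gene's own spread the adjusted p of HSPB9, HSPB6 and CRYAB was 0.125, 0.0556 and 0.054 (limma). Mitochondrial chaperones and proteases fell in 6 of 9 cases with none higher, led by HSPA9, the mitochondrial HSP70, at -1.78 (adjusted p = 2.83e-12, limma), with GRPEL2, its exchange factor, at -1.31 and TRAP1, the mitochondrial HSP90, at -1.26. Of the heat shock factors and their binding protein, HSF2 (-0.76) and HSBP1 (-0.86) fell and HSF4 rose by 1.03 (adjusted p = 0.0001, limma); HSF1, the main driver of the heat shock response, stood at 0.43 (adjusted p = 0.135, limma). The adjusted p of HSF2 was 0.115 with each gene's own spread (limma). HSBP1 stood at -1.67 in uninduced and -0.04 in induced cells, and HSF4 at 0.72 and 1.35. In induced cells alone 2 of 9 mitochondrial genes fell, and TRAP1 stood at -0.55 (adjusted p = 0.196, limma), beside -1.97 in uninduced cells.

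**Figure D5:**
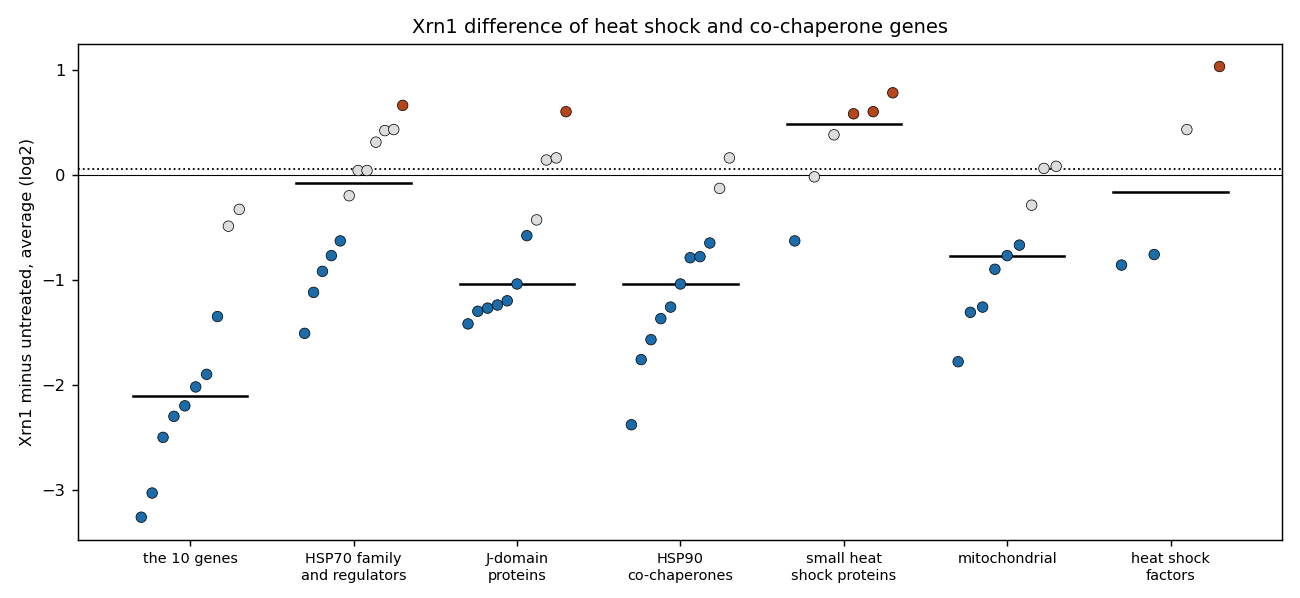
Average Xrn1 difference (log2) of the 10 genes and of the 53 measured genes of the chaperone lists, ordered by value within a list, with bars at list medians and a dotted line at the median of all genes (0.05); blue points fell, red rose and grey did not pass an adjusted p of 0.05. The HSP90 co-chaperones hold 9 blue points of 11, and the small heat shock proteins 3 red and 1 blue of 6. Of all genes, 29.8% fell and 14.2% rose.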

How the data were processed

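For each of the 12 exon arrays the authors deposited normalised log2 values per probe set, from RMA as implemented in oligo per the submitters' processing notes. Versions, array annotation and genome build: not given in the sources used here. No further normalisation was applied. Symbols of 357604 probe sets with 1 symbol were updated through RefSeq names. Probe sets were kept when their 12-array mean exceeded 2.04, the median of such means. A gene's level is the mean of its kept probe sets, with at least 3 required. Levels of 16883 genes were fitted with limma 3.58.1 in R 4.3.3 (lmFit, eBayes) over 4 group means, two-sided, Benjamini-Hochberg adjusted over all genes, threshold 0.05. With 8 residual degrees of freedom limma gave every gene a common SD of 0.418, so SEs are equal between genes. The p of a gene therefore do not measure its own spread, unless its own spread is named. RMA equalises arrays, so a shift of all RNA does not show. No depth applies to arrays; 3 per group limit the precision. Tables and motif searches used Python 3.11.15 and pandas 2.3.3.

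Replicate number 2 stands in the titles of both CM1X and CM2X; CM1X was counted as replicate 1. The members and lists were chosen with earlier results of these data known. Named genes are the members, up to 4 genes of each list with the smallest p for the Xrn1 average and up to 2 for induction in untreated RNA, and the 5 genes best correlated with HSPB8. HSPB8 has no p in contrasts that its choice used, but its Xrn1 average, which shares arrays with the choice, has a p. Alternatives were other filters, gene summaries, scalings, priors, weights, replicate blocks and left-out arrays. The fit was tested on simulated data.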

Additional observations from a re-analysis of the deposited data

Results flagged for a closer look

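The difference of HSPB8 with induction ran in opposite directions in untreated and in Xrn1-treated RNA. All 9 pairwise differences between induced and uninduced arrays were negative without Xrn1, as for 17.4% of all genes. With Xrn1 all 9 were positive, as for 31.3% of all genes. The medians over all genes, -0.35 without Xrn1 and 0.28 with it, had these signs too. So did the differences of HSPB1, HSPA8, HSPH1 and DNAJA1. The difference between both effects of HSPB8 was 2.38 on the log2 scale, beside a median of 0.7 over all genes. HSPB8 was chosen for its value in Xrn1-treated RNA, so the 2.38 was not tested.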

How the results depend on the processing

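Of 1510 values of single members recomputed under alternatives, 1427 kept their direction and side of the threshold or moved by less than the replicate spread. After cyclic loess HSPB1 turned to 1.47 in uninduced cells, 1.32 in induced cells and 1.4 on average, and the difference of its Xrn1 effects to -0.15; that of HSP90AA1 turned to -0.3. The cause was not tested. For induction without Xrn1, array weights, which had not converged, gave 3 members (HSPB8, HSPH1 and DNAJA1, all lower) and 27 list genes, in place of 0. Leaving out 1 array at a time gave 0 to 2 members and 0 to 29 list genes there, the upper values without induced untreated replicate 3; 7 to 8, 7 and 8 to 9 members for Xrn1 in uninduced cells, in induced cells and on average; and 27 to 37 list genes on average. Without uninduced replicate 2 of both treatments all 10 members were lower on average. Brightness limits HSPB8: without the filter on dim probe sets its difference between both induction effects was 1.62, and with the median of probe sets 3.12.

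The replicate numbers did not pair the arrays: residuals of arrays with the same sample number correlated at -0.708 to 0.125 over 6 pairs, 1 of them above 0.1, and those of arrays with the same replicate number in any other group at -0.708 to 0.557 over 18 pairs, 6 of them above 0.1. With the number as a replicate block, 7, 7, 8 and 0 members passed for Xrn1 in uninduced cells, in induced cells, on average and for induction without Xrn1, and 36 and 0 list genes on average and for that induction. With the sample number as the block, 7, 7 and 8 members and 30 list genes passed in the Xrn1 comparisons.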
